A study of Mus musculus with 20 samples.

Results

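The unfolded protein response and the integrated stress response were followed here through 40 genes in the heart apex of mice with cardiac light chain amyloidosis and of mice without it. The genes were chosen by symbol and by their known place in these responses. The choice and the grouping were made with earlier results of these data known. All 40 were found among the 25308 genes of the deposited table. After the filter on low counts 38 of them were tested, among 14477 genes in all, and Fgf21 and Slc7a11 were not. Ddit3 has a second entry in the table, which was at 0 in every mouse and was not used.

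Proteins that misfold in the endoplasmic reticulum (ER) are sensed by IRE1 (Ern1), PERK (Eif2ak3) and ATF6, which lie in its membrane. IRE1 splices the Xbp1 messenger, and XBP1 and ATF6 drive genes of chaperones and of ER-associated degradation (ERAD), while PERK phosphorylates eIF2α. GCN2 (Eif2ak4) phosphorylates the same factor when amino acids are short, and mitochondrial stress is known to lead to the same phosphorylation. General translation then slows, ATF4 is translated, and ATF4 with its partners drives genes of amino acid and one-carbon metabolism and secreted factors such as FGF21 and GDF15. This second branch is the integrated stress response (ISR). Counts per gene report the level of a messenger, not Xbp1 splicing, eIF2α phosphorylation or ATF4 translation.

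RNA from the heart apex was sequenced in 9 AL, 4 LS and 7 Ctrl mice. AL and LS mice were λS-DH, with the human λS light chain gene inserted at the Ig kappa locus of DH-LMP2A mice, whose plasma cells form without Ig heavy chains. AL mice had been induced and carried amyloid deposits in the heart, LS mice had not been induced and had none, and Ctrl were DH-LMP2A mice without the human gene. The light chain of this model is made by plasma cells and not by the heart. Induction used 1 intravenous injection of variable domain of the light chain, either as fibril seeds or soluble, and the labels do not say which a mouse received. The study used adult mice, and the labels used here give no age. The labels place 15 mice (7 AL, 4 LS and 4 Ctrl) in a first sequencing run and 5 mice (2 AL and 3 Ctrl) in a second, so LS was measured in the first run only.

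Total counts lay between 43993268 and 62668157 in the first run and between 7867636 and 11794617 in the second. All 8 cardiomyocyte markers were measured, and their summed level lay between 46894 and 76637 CPM (counts scaled to the size of each library) in every mouse, as in heart tissue. Several marker lists of other cells differed between mice. The 10 hepatocyte markers summed to 26.6 to 105 CPM in AL, 53.2 to 278 in LS and 32.7 to 400 in Ctrl, and 9 of them were lower in AL than in Ctrl. The 6 adipocyte markers summed to 198 to 1006 CPM in AL, 395 to 470 in LS and 369 to 455 in Ctrl. The 8 immediate-early genes summed to 87.9 to 323 CPM in AL, 123 to 644 in LS and 115 to 251 in Ctrl. The mouse AL9 had the highest fibroblast sum (4597 CPM, against at most 1579 in any other mouse) and the highest macrophage sum (462 CPM, against at most 310). Plasma cell markers summed to 59.7 to 89.8 CPM in AL, 64.3 to 80.3 in LS and 54.3 to 78.9 in Ctrl, a list that holds Xbp1 itself and of which Tnfrsf17 did not pass the filter. In bulk tissue fewer cells of a type and less RNA per cell cannot be told apart.

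Promoter sequences are given first because ATF4 reads a known element in its target genes. RefSeq promoters (GRCm38.p6, from 250 bases before to 50 after a RefSeq start of a gene) were at hand for 36 of the 40 genes, and were searched on both strands. The core TTGCATCA, bound by ATF4 with C/EBP partners, was found in 7 of these 36 genes (19.4%), against 1.03% of the 27025 genes with a promoter. No element of the ER branch is reported here. The genes were drawn from known targets, so this share describes the choice of genes. The stretches below hold the ATF4 core of the 3 genes later found higher in AL than in Ctrl by both thresholds, and of Fgf21, with the core in capitals, 5′ to 3′ on the strand of the gene (its coordinates lie on the minus strand in all 4).
Atf3, chr1:191183406-191183473: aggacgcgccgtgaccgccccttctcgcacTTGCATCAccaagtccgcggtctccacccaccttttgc
Nupr1, chr7:126625543-126625610: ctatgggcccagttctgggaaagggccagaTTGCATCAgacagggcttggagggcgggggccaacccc
Pycr1, chr11:120643814-120643881: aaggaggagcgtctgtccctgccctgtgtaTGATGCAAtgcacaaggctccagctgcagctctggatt
Fgf21, chr7:45615592-45615659: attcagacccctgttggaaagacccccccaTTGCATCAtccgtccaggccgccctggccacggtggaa

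The core began at position -110 from the RefSeq start in both Atf3 and Nupr1, at -139 in Fgf21 and at -103 in Pycr1, where it reads in the reverse orientation. In Atf3 and Nupr1 this start lies inside the gene span given below (GENCODE M21), not at its outer end. It was also found in Chac1, Slc7a11 (at 2 places) and Herpud1. Atf5, Ddit3, Trib3 and Mthfd2 did not hold these letters in their windows.

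In AL hearts the share of these genes called was close to that of all genes, and 4 of the 6 that rose against Ctrl were ISR transcription factors or their feedback genes. Genes were tested with edgeR with group and run in the model. A gene passed at a false discovery rate (FDR, Benjamini-Hochberg over all genes tested) under 0.05, and was called when its log2 fold change (log2FC) was also at least 0.58 in size. Against Ctrl, 3 of 38 genes were called, all higher in AL: Atf3, Nupr1 and Pycr1. That is 7.89% of the tested members, close to the 7.81% called among all genes, of which 4.1% were called in the higher direction. Without the size threshold 9 members passed (23.7%, against 26.2% of all genes), 6 higher (10.7% of all genes were) and 3 lower (15.4% were). Against LS, 4 were called, all higher in AL (Atf5, Ddit3, Trib3 and Mthfd2), or 10.5% against a background of 8.9%, with 5.86% of all genes called in the higher direction. Against LS 6 passed (15.8%, against 23.4%), 4 higher and 2 lower, where 9.78% and 13.6% of all genes did. Of the 9 members that passed against Ctrl, 1 kept an FDR under 0.05 with counts adjusted for run by ComBat-seq (Nupr1), 2 without the 5 mice of highest hepatocyte level (Atf3 and Nupr1) and 9 with DESeq2. With the hepatocyte level as a covariate 7 of the 9 kept it. Of the 6 against LS, 0 kept it with ComBat-seq, 0 without the 5 mice, 6 with DESeq2 and 6 with the covariate. The study itself handled the sequencing runs by ComBat adjustment and tested with edgeR, where a run term in the model is used here. The 5 mice were Ctrl1, Ctrl3, Ctrl4, LS1 and LS3, all of the first run, which left Ctrl2 as the only first-run Ctrl mouse. Without them 3.39% of all genes were called against Ctrl and 3.19% against LS. These AL comparisons share the AL mice, and those with Ctrl share the Ctrl mice.

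No member differed between LS and Ctrl by edgeR, where the lowest FDR was 0.755, and DESeq2 called 0 as well. At an unadjusted p under 0.05 there were 3 members, against 5.94% of all genes, and only 3 genes of 14477 (0.0207%) were called. The median log2FC over the tested members was 0.15 in AL against Ctrl, 0.09 in AL against LS and 0.02 in LS against Ctrl. Over all genes it was 0.01, 0.01 and 0.00032.

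**Figure D1:**
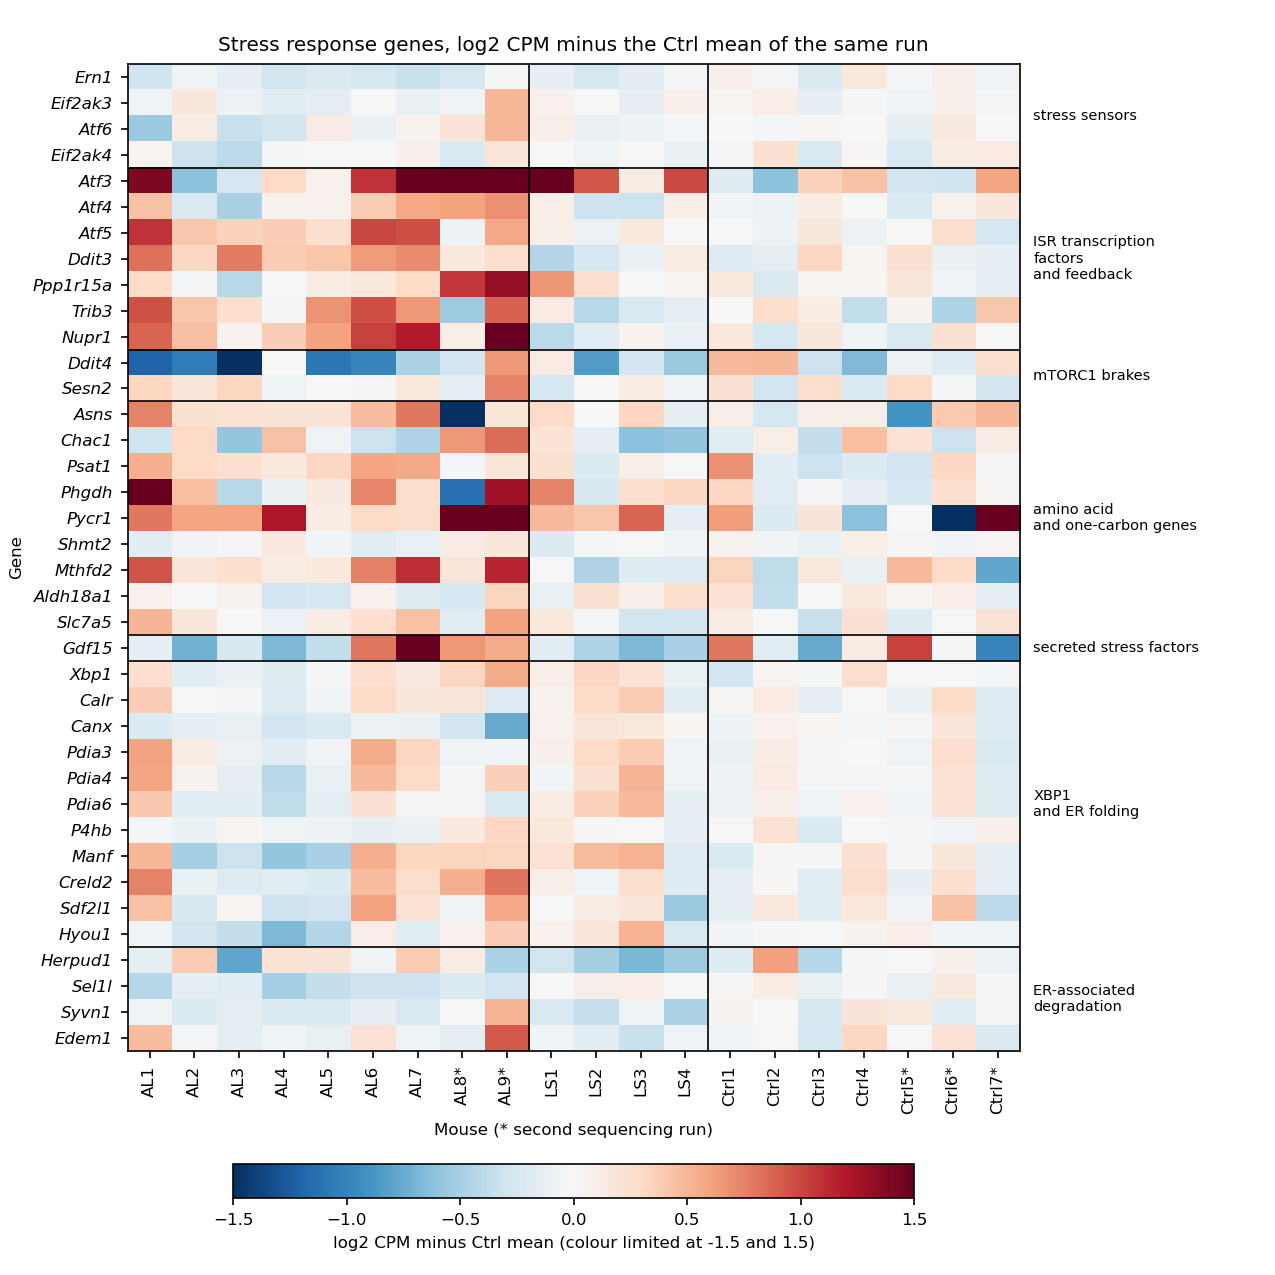
Level of each tested gene in each mouse, as log2 CPM minus the Ctrl mean of the same sequencing run, with genes grouped by role and mice by group (an asterisk marks the second run). The block of ISR transcription factors and feedback genes is red in most AL mice, most strongly in AL1, AL6, AL7 and AL9, while the block of ER folding genes is mixed in all groups.

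The 4 sensors were close to equal between groups, and Ern1 alone passed. Their median log2FC was -0.02 in AL against Ctrl. Ern1 lay between 12.1 and 17.8 CPM in AL (median 13.0), at 13.9, 12.6, 13.5 and 14.99 in LS1 to LS4, and between 13.0 and 19.02 in Ctrl (median 16.9). AL and Ctrl overlapped, with 5 AL mice below every Ctrl mouse. Ern1 fell in AL against Ctrl by 0.20 on the log2 scale (SE 0.0644, FDR 0.0275), and the FDR rose above 0.05 without Ctrl1 or Ctrl4 (at most 0.0859). Its log2FC against LS was -0.07 (FDR 0.511).

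Eif2ak3 had 8.36 to 13.1 CPM in AL and 8.65 to 10.1 in Ctrl, with a log2FC of 0.04 (95% interval -0.14 to 0.21, FDR 0.791). Atf6 had 113 to 182 CPM in AL and 114 to 170 in Ctrl, with a log2FC of 0.03 (-0.18 to 0.24, FDR 0.867). Eif2ak4 had 4.96 to 9.47 CPM in AL and 5.56 to 9.07 in Ctrl, with a log2FC of -0.06 (-0.26 to 0.14, FDR 0.660). AL mice lay on both sides of the Ctrl range for each of these 3 genes, with 2 above and 2 below it for Eif2ak3, and LS lay inside the AL range for each. The mouse AL9 was the highest AL mouse for Ern1, Eif2ak3 and Eif2ak4. Per kilobase of exon, Atf6 was the most abundant sensor, at a mean level of 16.8 CPM per kb, against 1.80 for Ern1, 1.57 for Eif2ak3 and 0.917 for Eif2ak4.

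Among the ISR transcription factors and their feedback genes, all 7 had a log2FC above 0 in AL against Ctrl and 4 passed. Of all genes, 51.6% were above 0 and 10.7% passed in the higher direction. The median of the 7 was 0.51, where the median of all genes was 0.01. These 7 were grouped with earlier results of these data known. Further ISR genes, listed apart below, include other transcription factors such as Cebpb, Cebpg and Jdp2. Of 22 tested in that list, 8 were above 0 against Ctrl, 0 passed higher and 2 passed lower. Against LS 5 of the 7 were above 0, 3 were called, and the median was 0.59. Of all genes, 51.4% were above 0 against LS and 5.86% were called in the higher direction. In the further ISR list 9 of 22 were above 0 against LS, with 1 passing higher and 4 lower. The LS against Ctrl values ran from -0.24 to 1.12, and none passed.

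Nupr1 encodes a small nuclear protein that is induced by many stresses, and lies at chr7:126623249-126630861 (GRCm38, GENCODE M21). It had 2.73 to 19.5 CPM in AL (median 7.87), 3.87, 4.56, 5.36 and 4.80 in LS1 to LS4, and 2.17 to 5.81 in Ctrl (median 4.30). The AL mice were mostly higher, 7 of 9 above every Ctrl mouse, with AL8 among the Ctrl values and AL9 far above the rest. Nupr1 rose in AL against Ctrl by 1.10 on the log2 scale (SE 0.297, FDR 0.0112), a 2.15-fold difference. Without AL9 the log2FC was 0.61, with an FDR of 0.0171. Against LS the log2FC was 1.01 and missed the threshold (FDR 0.0507), and its FDR was under 0.05 without AL2, AL3, AL8 or AL9 and with 6 other alternatives.

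Atf3, an early stress-induced transcription factor of the ATF family, lies at chr1:191170296-191218039. It ranged from 3.92 to 22.4 CPM in AL (median 12.8), was 18.4, 11.5, 6.54 and 12.1 in LS1 to LS4, and ranged from 3.94 to 9.99 in Ctrl (median 5.41). The spread within AL covered the whole Ctrl range, and LS mice were about as high as AL mice. Atf3 rose in AL against Ctrl by 0.92 (SE 0.320, FDR 0.0399), and its log2FC was 1.12 in LS against Ctrl (SE 0.396, FDR 0.755) and -0.20 in AL against LS (FDR 0.738). The call against Ctrl was lost without any 1 of AL1, AL6, AL7, AL8, AL9, Ctrl1, Ctrl2, Ctrl5 or Ctrl6 (FDR up to 0.0803). It was also lost in the first run alone (log2FC 0.64, FDR 0.255) and with ComBat-seq (FDR 0.0546), and the log2FC was 1.47 with the hepatocyte level as a covariate. With the immediate-early genes as a covariate it was 0.86 (FDR 0.0383).

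Atf5, a relative of ATF4 that is also translated under eIF2α phosphorylation and serves the mitochondrial stress response, had 20.03 to 59.1 CPM in AL (median 36.1), 29.5, 26.2, 30.8 and 27.8 in LS1 to LS4, and 17.8 to 31.3 in Ctrl (median 26.1). In 8 of 9 AL mice it was above every Ctrl and every LS mouse, and AL8 was the exception. It rose by 0.55 against Ctrl (SE 0.144, FDR 0.00901), just under the size threshold, and by 0.59 against LS (SE 0.168, FDR 0.0161). Without LS2 the FDR against LS was 0.0564.

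Ddit3, which encodes the transcription factor CHOP, known for its part in cell death under lasting ER stress, lies at chr10:127290774-127296288. It had 14.02 to 20.2 CPM in AL (median 15.7), 8.36, 9.42, 10.5 and 12.4 in LS1 to LS4, and 9.87 to 15.4 in Ctrl (median 12.0). All AL mice were above all LS mice. Against Ctrl, 5 of 9 AL mice were above every Ctrl mouse, and AL2, AL4, AL5 and AL8 lay inside the Ctrl range. Ddit3 was the only member whose AL and LS values did not overlap in the higher direction, against 5.24% of all genes. It rose by 0.71 against LS (SE 0.134, FDR 0.00146) and by 0.47 against Ctrl (SE 0.114, FDR 0.00579), and both passed without any single mouse. The FDR against Ctrl rose above 0.05 with ComBat-seq (0.130), with the hepatocyte level as a covariate (0.0688), without the 5 mice of highest hepatocyte level (0.0885) and in the second run alone (0.577), and that against LS with ComBat-seq (0.0898) and without the 5 mice (0.0522).

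Trib3, a pseudokinase that binds ATF4 and CHOP and holds them back, had 1.42 to 4.84 CPM in AL (median 3.87), 2.67, 1.83, 2.10 and 2.22 in LS1 to LS4, and 1.49 to 2.95 in Ctrl (median 2.45). The highest 7 AL mice were above every LS mouse, and AL8 was the lowest mouse of all. It rose by 0.73 against LS (SE 0.236, FDR 0.0307), a call lost without AL1, AL6, LS2, LS3 or LS4 (FDR up to 0.103). Against Ctrl the log2FC was 0.51 (SE 0.201, FDR 0.0675), and its FDR was under 0.05 without AL4, AL8 or Ctrl7 and in 3 of 14 alternatives.

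Atf4 itself, the hub of the ISR, had 50.9 to 107 CPM in AL (median 75.7), 76.7, 57.8, 57.4 and 76.3 in LS1 to LS4, and 42.3 to 77.1 in Ctrl (median 67.6). The AL mice were spread over the whole range, with 4 above every Ctrl mouse. The log2FC was 0.31 against Ctrl (95% interval 0.02 to 0.59, FDR 0.110) and 0.31 against LS (-0.04 to 0.66, FDR 0.193). With the runs fitted apart the log2FC of Atf4 against Ctrl was 0.16 in the first (FDR 0.518) and 0.69 in the second (FDR 0.234). Its FDR against Ctrl was under 0.05 without AL3 (0.0291) and in 1 of 14 alternatives, and against LS in 2 of 13. With the replicate block its log2FC against Ctrl was -0.056. Ppp1r15a, which encodes GADD34, the subunit that lets a phosphatase restore eIF2α, had 20.4 to 47.1 CPM in AL, 27.1 to 43.4 in LS and 17.5 to 30.3 in Ctrl. Its log2FC was 0.40 against Ctrl (FDR 0.0674) and -0.06 against LS (FDR 0.855).

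**Figure D2:**
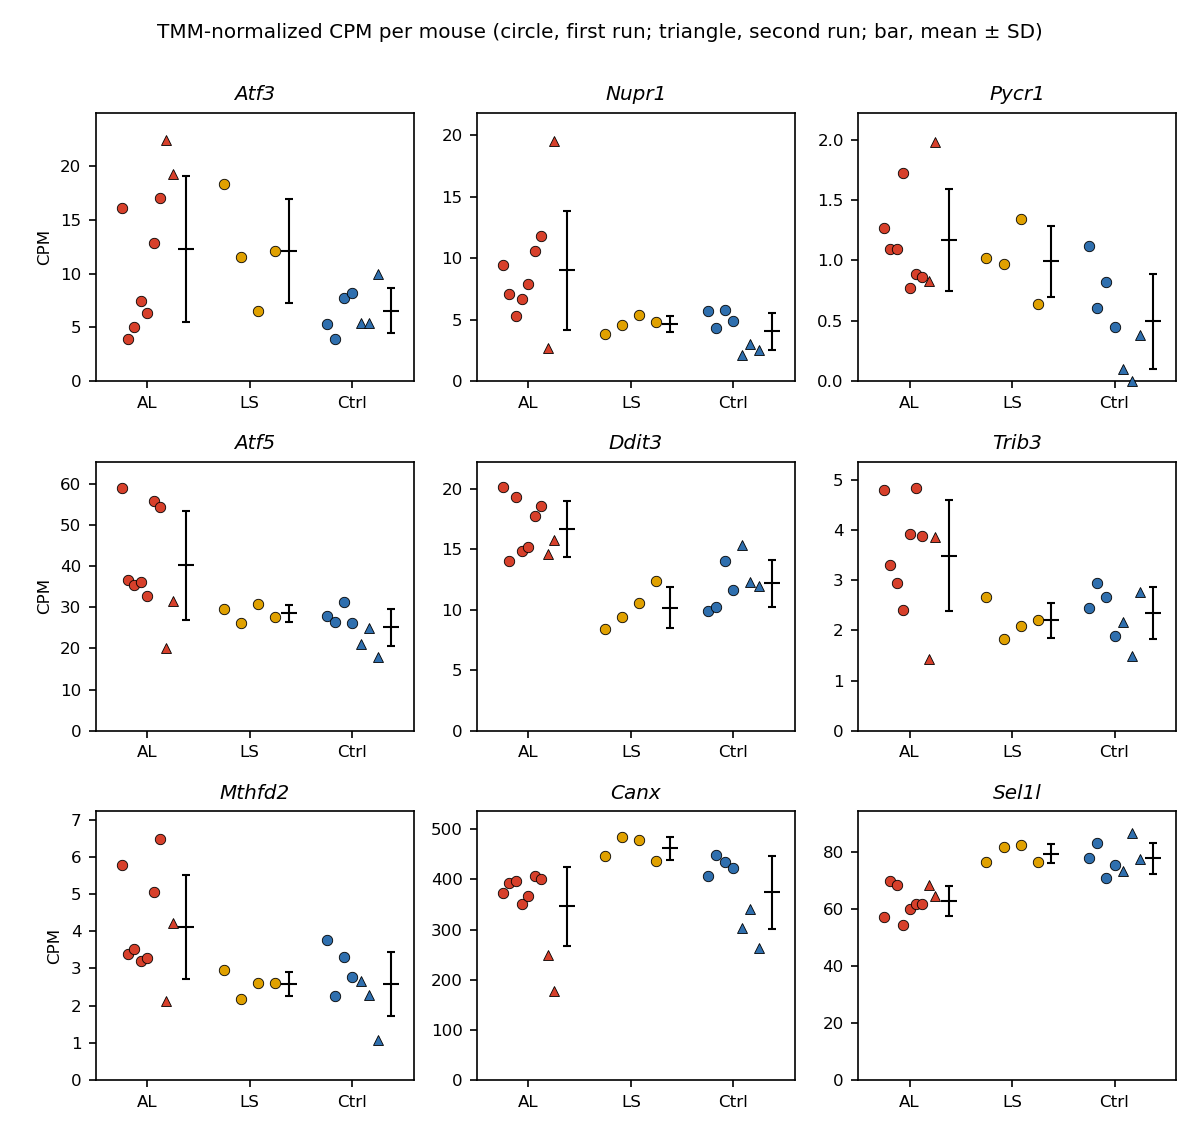
Level of 9 genes in each mouse in TMM-normalized CPM (vertical axis, from 0), with 9 AL, 4 LS and 7 Ctrl mice, first-run mice as circles, second-run mice as triangles and the mean ± SD as a bar. Sel1l is lower in every AL mouse than in every LS and Ctrl mouse, and Canx than in every LS mouse. Ddit3 is higher in every AL mouse than in every LS mouse, and the other genes overlap in part.

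Of the brakes on mTORC1, the kinase complex that drives translation when nutrients are plentiful, neither passed. Ddit4 (REDD1) had 16.4 to 66.2 CPM in AL (median 32.03), 72.1, 37.2, 54.3 and 45.3 in LS1 to LS4, and 20.5 to 93.7 in Ctrl (median 42.1). Its Ctrl values split by run, with 42.1 to 93.7 CPM in Ctrl1 to Ctrl4 and 20.5 to 28.2 in Ctrl5 to Ctrl7. The log2FC against Ctrl was -0.59 (SE 0.272, FDR 0.113), and in the first run alone Ddit4 fell by 0.95 (FDR 0.0358). Sesn2 (sestrin 2) had a log2FC of 0.19 against Ctrl (FDR 0.323) and 0.21 against LS (FDR 0.374).

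The genes of amino acid and one-carbon metabolism had a median log2FC of 0.22 against Ctrl and 0.25 against LS, with 8 of 9 tested genes above 0 in each, and 2 and 1 passed. Of all genes, 51.6% and 51.4% were above 0, and 10.7% and 9.78% passed in the higher direction. Pycr1, a mitochondrial enzyme of proline synthesis, had 0.774 to 1.98 CPM in AL (median 1.09), 1.02, 0.968, 1.34 and 0.636 in LS1 to LS4, and 0 to 1.12 in Ctrl (median 0.448). Every AL mouse was above the Ctrl median, and 3 were above every Ctrl mouse. The 3 Ctrl mice of the second run had 1, 0 and 5 counts, near the floor of 3 counts, and the 2 AL mice of that run had 7 and 23. Pycr1 rose against Ctrl by 1.08 (SE 0.385, FDR 0.0451). The log2FC was 0.56 in the first run alone (FDR 0.162), 1.82 with the hepatocyte level as a covariate, 1.74 without the 5 mice of highest hepatocyte level (FDR 0.0585), 1.03 with ComBat-seq (FDR 0.108), and 0.36 against LS (FDR 0.595). Leaving out 1 mouse ended the call in 14 of 20 cases, that is without AL1, AL2, AL3, AL4, AL8, AL9, LS1, LS2, LS3, Ctrl2, Ctrl4, Ctrl5, Ctrl6 or Ctrl7 (FDR up to 0.0999).

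Mthfd2, an enzyme of mitochondrial one-carbon metabolism that adult tissues normally keep low, had 2.13 to 6.48 CPM in AL (median 3.51), 2.95, 2.17, 2.61 and 2.6003 in LS1 to LS4, and 1.08 to 3.75 in Ctrl (median 2.66). In 8 of 9 AL mice it was above every LS mouse, and AL1, AL6 and AL7 were the highest. It rose by 0.78 against LS (SE 0.249, FDR 0.0300), a call lost without AL1, AL7, LS2, LS3 or LS4 (FDR up to 0.0970). It rose by 0.58 against Ctrl (SE 0.210, FDR 0.0482), just under the size threshold. Without AL1, AL6, AL7, AL9, any LS mouse, Ctrl2, Ctrl3, Ctrl4, Ctrl6 or Ctrl7 the FDR against Ctrl was over 0.05, up to 0.117. With the hepatocyte level as a covariate this log2FC was 0.93. Apart from single mice left out, the difference from Ctrl missed the FDR threshold in 10 of 14 alternatives. Among these were ComBat-seq (FDR 0.172), the first run alone (FDR 0.0784) and the fit without the 5 mice (FDR 0.125).

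The other 7 tested genes of the group did not pass in any comparison. Phgdh and Psat1, enzymes of serine synthesis, had a log2FC against Ctrl of 0.52 (FDR 0.212) and 0.26 (FDR 0.218). Asns (asparagine synthetase) had 0.17, Slc7a5, a transporter of large neutral amino acids, 0.22, and Chac1, which degrades glutathione, 0.12. Shmt2, which feeds the same one-carbon pathway as Mthfd2, had 0.01 with a 95% interval of -0.11 to 0.12, and Aldh18a1, an enzyme of proline synthesis, had -0.04. Shmt2 was the most abundant gene of the group per kilobase of exon, at 10.4 CPM per kb, against 0.939 for Mthfd2 and 0.228 for Pycr1. Slc7a11, the cystine transporter, had at most 6 counts in every mouse but Ctrl4, which had 30, and was not tested.

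The secreted factors were high in single AL mice. Fgf21, a hormone that the heart can make under stress, had 32 counts in AL1, 19 in AL6 and 29 in AL7, and at most 4 in each of the other 17 mice. In CPM these 3 mice had 0.506, 0.382 and 0.642, against at most 0.119 elsewhere. LS1 to LS4 had 2, 2, 1 and 1 counts. Liver also makes Fgf21, and the hepatocyte sums of AL1, AL6 and AL7 were 99.7, 105 and 66.3 CPM. Their part in the Fgf21 counts was not tested. In a fit with no filter on low counts the FDR of Fgf21 was 0.117 against Ctrl and 0.0714 against LS.

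Gdf15, a circulating stress signal, had 0.438 to 3.45 CPM in AL (median 0.680), 0.661, 0.5259, 0.448 and 0.520 in LS1 to LS4, and 0.231 to 1.33 in Ctrl (median 0.666). AL7 alone was above the Ctrl range, and the other 8 AL mice lay inside it. The log2FC was 0.41 against Ctrl (SE 0.442, FDR 0.522) and 0.99 against LS (SE 0.522, FDR 0.175). Without AL7 these were -0.08 and 0.40.

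**Figure D3:**
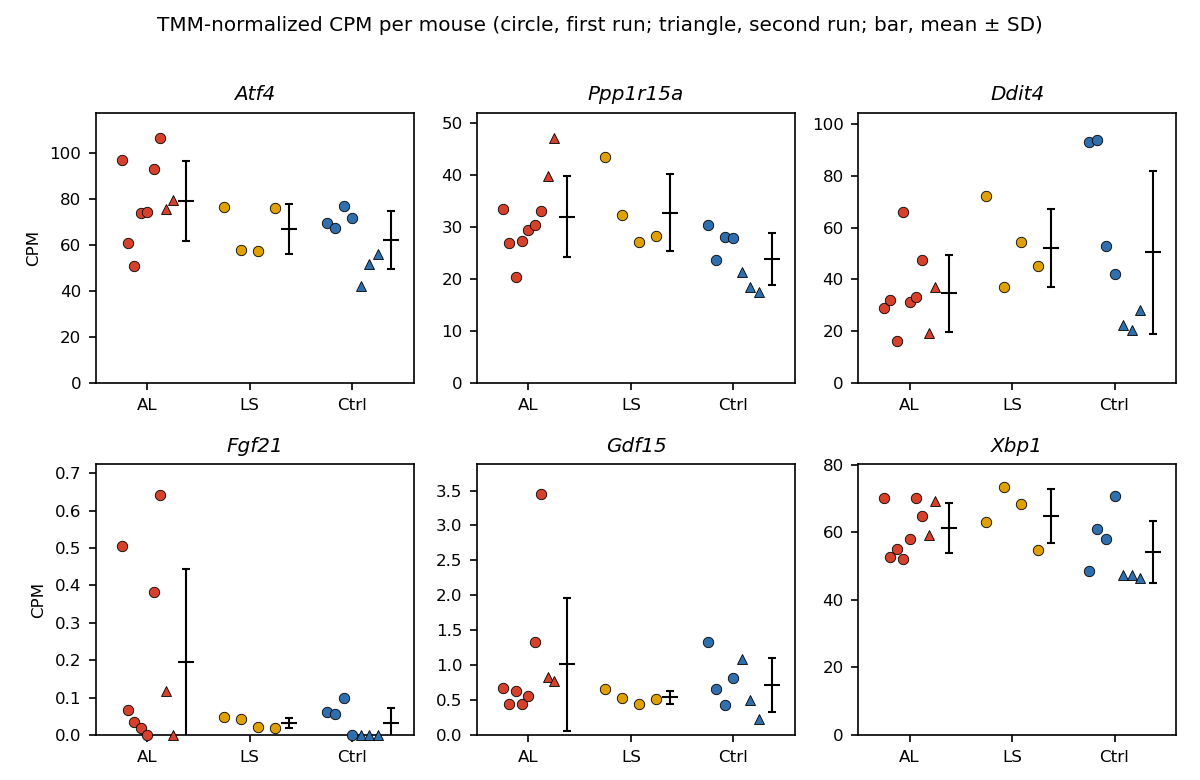
Level of Atf4, Ppp1r15a, Ddit4, Fgf21, Gdf15 and Xbp1 in each mouse in TMM-normalized CPM (vertical axis, from 0), with circles for the first run, triangles for the second and a bar for the mean ± SD. Fgf21 is at 0.382 CPM or more in AL1, AL6 and AL7 alone, and Gdf15 is highest in AL7.

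In the branch of XBP1 and ER folding, 1 of 11 genes passed, and it was lower in AL. The median log2FC was 0.09 against Ctrl and -0.05 against LS, with values from -0.27 to 0.31 and from -0.35 to 0.19. In LS against Ctrl 10 of 11 were above 0 (50.1% of all genes were), with a median of 0.13, and none passed. Canx (calnexin), the membrane chaperone that holds glycoproteins during folding, had 178 to 407 CPM in AL (median 373), 447, 485, 479 and 438 in LS1 to LS4, and 263 to 449 in Ctrl (median 407). Every AL mouse was below every LS mouse, as for 8.25% of all genes. The second-run mice of AL and Ctrl were the lowest of their groups, and LS had no mouse in that run. Canx fell by 0.31 against LS (SE 0.0895, FDR 0.0198) and by 0.27 against Ctrl (SE 0.0775, FDR 0.0167). The difference from LS had an FDR over 0.05 without LS2 or LS3 (up to 0.0634), and without AL9 the difference from Ctrl was -0.17.

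Xbp1 had 52.1 to 70.3 CPM in AL (median 59.1), 63.1, 73.5, 68.5 and 54.7 in LS1 to LS4, and 46.5 to 70.7 in Ctrl (median 48.5). All 9 AL mice were above the Ctrl median, none was above the highest Ctrl mouse, and LS1, LS3 and LS4 lay among them. The levels differed by run. The means of AL and Ctrl were 60.4 and 59.5 CPM in the first run, and 64.3 and 47.1 in the second. With the runs fitted apart the log2FC against Ctrl was 0.02 in the first and 0.50 in the second. In the fit of all mice it was 0.15 against Ctrl (95% interval -0.05 to 0.36, FDR 0.258) and -0.05 against LS (-0.30 to 0.19, FDR 0.778). Calr (calreticulin), the soluble partner of calnexin, had a log2FC of 0.06 against Ctrl (-0.15 to 0.27) and -0.07 against LS (-0.32 to 0.19).

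The protein disulfide isomerases Pdia3, Pdia4, Pdia6 and P4hb had a log2FC against Ctrl of 0.13, 0.15, -0.04 and 0.02, and none passed. The chaperone Hyou1 had -0.10 against Ctrl and -0.35 against LS (FDR 0.0725). Manf, Creld2 and Sdf2l1, secreted or luminal proteins induced with the ER branch, had 0.09, 0.31 and 0.15 against Ctrl, with Creld2 at an FDR of 0.141. Calr, Canx and P4hb were, with the ERAD gene Herpud1, the most abundant genes of the 40 per kilobase of exon, at 103, 80.8, 73.4 and 93.2 CPM per kb.

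Of the ERAD genes, Sel1l was the most clearly different, and it was lower in AL. Sel1l is the adaptor of the HRD1 ubiquitin ligase complex and lies at chr12:91806043-91849157. It had 54.6 to 69.9 CPM in AL (median 62.0), 76.7, 81.9, 82.7 and 76.5 in LS1 to LS4, and 71.1 to 86.6 in Ctrl (median 77.8). All 9 AL mice were below all LS and all Ctrl mice, in both runs. Among all genes, AL lay below Ctrl without overlap for 1.51% and below LS for 8.25%. Sel1l fell by 0.29 against Ctrl (SE 0.0584, FDR 0.00160) and by 0.35 against LS (SE 0.0685, FDR 0.00176), or to 0.816 and 0.784 of their levels, under the size threshold in both. Both differences passed without any single mouse. The FDR against Ctrl rose above 0.05 with ComBat-seq (0.267), without the 5 mice (0.0549) and in the second run alone (0.549), and that against LS with ComBat-seq (0.217) and without the 5 mice (0.0725).

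Syvn1, which encodes HRD1 itself, had a log2FC of -0.04 against Ctrl (FDR 0.789) and 0.16 against LS (FDR 0.317). Edem1, which marks misfolded glycoproteins for degradation, had 0.17 (FDR 0.383) and 0.25 (FDR 0.285). Herpud1, an ER membrane protein of the same complex, had 133 to 315 CPM in AL, 199, 171, 150 and 167 in LS1 to LS4, and 174 to 369 in Ctrl. Its values in LS were mostly lower than in the other groups, with a log2FC of 0.54 in AL against LS (SE 0.196, FDR 0.0529) and -0.58 in LS against Ctrl (SE 0.214, FDR 0.778). Against Ctrl the log2FC of AL was -0.04.

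**Figure D4:**
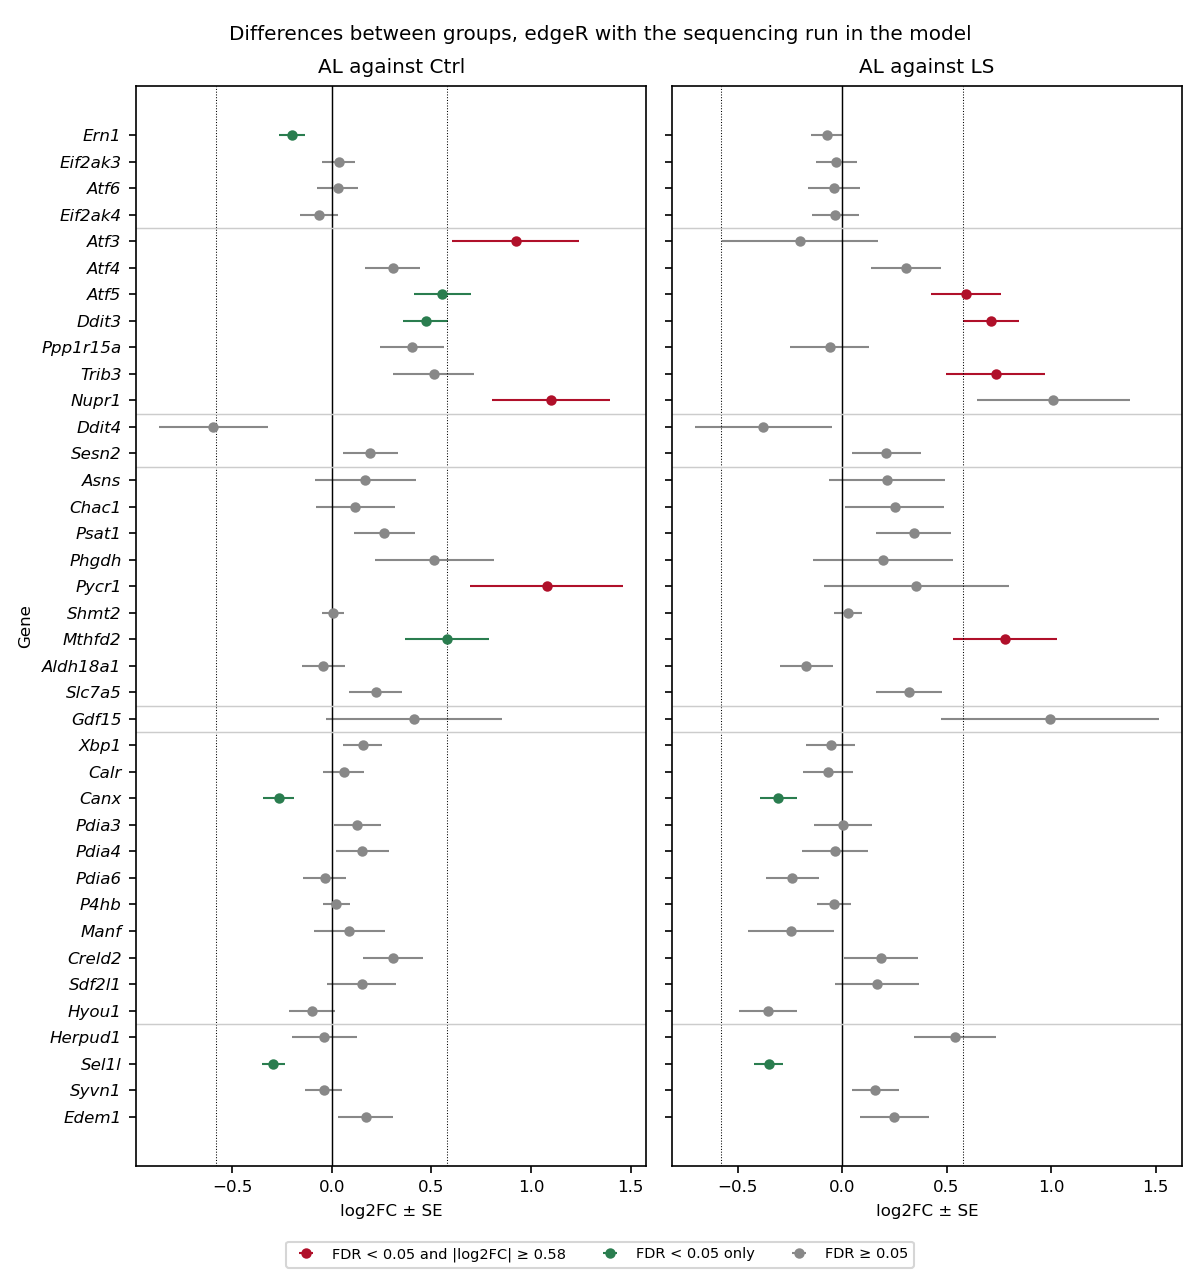
Log2FC ± SE of the 38 tested genes in AL against Ctrl (left) and AL against LS (right), in red where called, in green where only the FDR was under 0.05 and in grey otherwise, with dotted lines at the size threshold of 0.58. The called genes all lie on the higher side, and the genes that passed on the lower side (Ern1, Canx and Sel1l) are all smaller in size than 0.58.

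Between LS and Ctrl, mice with and without the circulating human light chain but both without deposits, the 3 members with an unadjusted p under 0.05 were Atf3, Ppp1r15a and Herpud1. Ppp1r15a had a log2FC of 0.46 (95% interval 0.04 to 0.88, FDR 0.817). The immediate-early genes, a class to which Atf3 belongs by its kinetics, had a median log2FC of 0.93 in the same comparison. Of these 8 of 8 were above 0, where 50.1% of all genes were, and none passed. Their summed level was 170, 123, 135 and 644 CPM in LS1 to LS4, and 115 to 251 in Ctrl. Among LS mice Atf3 and Ppp1r15a were highest in LS1 (18.4 and 43.4 CPM), against 12.1 and 28.2 in LS4. With the immediate-early genes as a covariate 0 members were called between LS and Ctrl, and 0 passed. Beyond that fit, the part of the immediate-early genes in these values was not tested. For Ddit3, Atf5, Trib3 and Nupr1 the LS against Ctrl values were -0.24 (95% interval -0.54 to 0.07), -0.04 (-0.42 to 0.34), -0.22 (-0.76 to 0.31) and 0.09 (-0.68 to 0.86).

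By sequencing run, the AL against Ctrl differences were partly alike. In the first run alone 5 members were called (Atf5, Ddit3, Trib3 and Nupr1 higher, Ddit4 lower), with a background of 7.82%. Against LS in that run, 5 were called, all higher (Atf5, Ddit3, Trib3, Nupr1 and Mthfd2), against 11.5%. In the second run, with 2 AL against 3 Ctrl mice, 0 members were called and 0 passed, where 16 genes (0.128%) were called in all. Of 36 members fitted in both runs, 22 had the same sign, a count that was not made over all genes.

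The difference between AL and Ctrl was tested against run, and 1 member passed, Ppp1r15a (97 genes, or 0.701%, passed in all). Its log2FC was 0.07 in the first run and 1.24 in the second, a difference of 1.12 (SE 0.212, FDR 0.0245). In the second run AL8 and AL9 had 39.8 and 47.1 CPM and Ctrl5 to Ctrl7 had 21.4, 18.4 and 17.5, whereas in the first run AL had 20.4 to 33.4 CPM and Ctrl 23.5 to 30.3. The summed immediate-early genes of AL8 and AL9 (234 and 323 CPM) were the highest among AL mice, and their part in this difference was not tested. Without AL9 the FDR was 0.116, without Ctrl6 it was 0.0630, and without AL8 the test passed 6 members. Nupr1 had 0.69 in the first run and 2.19 in the second, with an FDR of 0.290 for the difference, and Atf3 had 0.64 and 1.63, with 0.542.

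**Figure D5:**
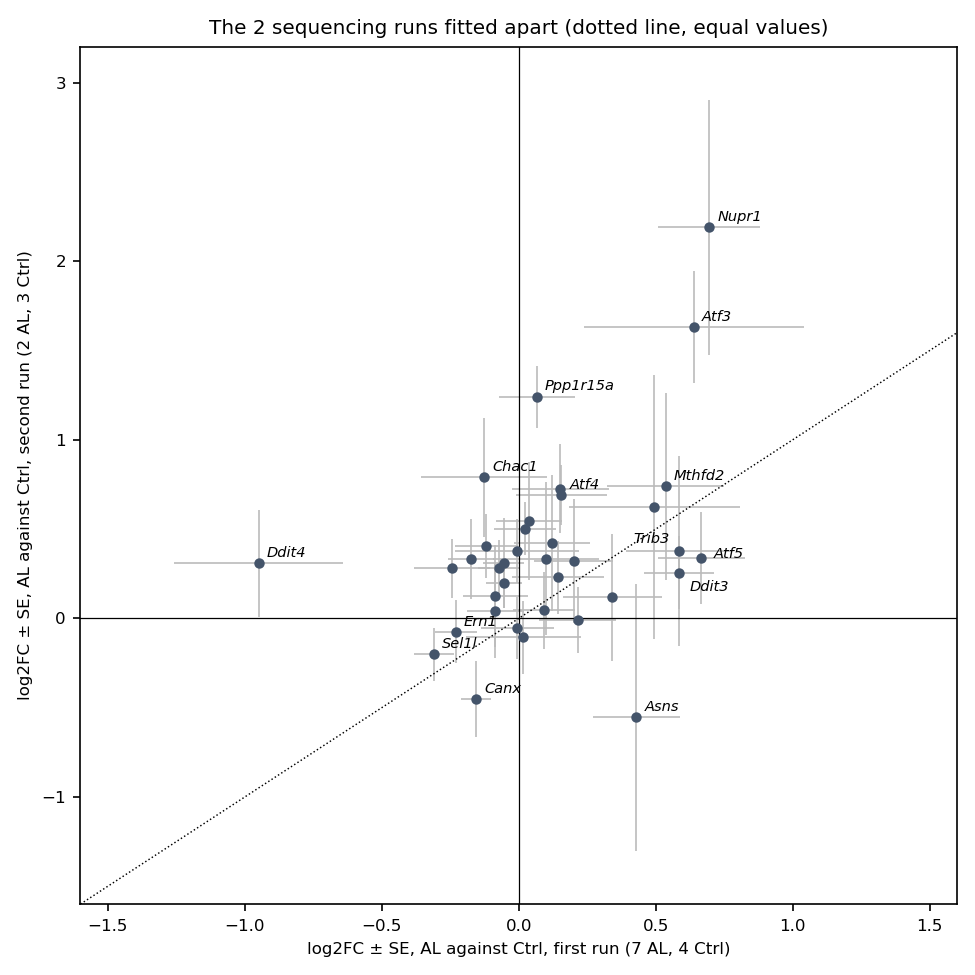
Log2FC ± SE of AL against Ctrl for the 36 genes fitted in both runs, first run on the horizontal and second run on the vertical axis, with a dotted line where the values are equal. Nupr1, Atf3 and Ppp1r15a lie well above the line, Ddit4 has opposite signs, and Atf5, Ddit3, Trib3 and Mthfd2 are above 0 in both.

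The AL mice differed among themselves. Of the 7 AL mice of the first run, AL1 had the highest level for 13 of the 38 tested genes, AL6 for 7 and AL7 for 7, and each of the other 4 for 1 to 4. The same count over all genes was not made, so it cannot be called particular to these genes. Averaged over the ISR transcription factors and feedback genes, the level above the Ctrl mean of the run was 0.84, 0.75 and 0.84 on the log2 scale in AL1, AL6 and AL7, and 0.04 to 0.31 in AL2 to AL5. It was 0.44 in AL8 and 1.17 in AL9. Over the ER folding genes it was 0.33, 0.30 and 0.13 in AL1, AL6 and AL7 and -0.31 to -0.13 in AL2 to AL5. These 3 mice also had the highest adipocyte sums of all mice (1006, 733 and 809 CPM), and AL1 and AL6 had the lowest cardiomyocyte sums (46894 and 50110 CPM). The part of these in the ISR levels was not tested. Amyloid load per mouse was not used here.

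In the wider pathway lists the median differences of AL were near or below 0. Against Ctrl, 1 of 22 tested further ISR genes was called, on the lower side, where 7.81% of all genes were called. Against LS 3 were, 1 of them higher, where 8.9% of all genes were. The median log2FC was -0.08 and -0.05. Aldh1l2, a mitochondrial folate enzyme, fell by 0.69 against Ctrl (SE 0.153, FDR 0.00328) and by 0.73 against LS (FDR 0.00734), with 6.02 to 9.41 CPM in AL, 9.36 to 15.8 in LS and 8.30 to 18.2 in Ctrl. Slc7a1, a transporter of cationic amino acids, fell by 1.14 against LS (SE 0.244, FDR 0.00318), with a log2FC of -0.46 against Ctrl (FDR 0.104). Mthfd1l, of the same mitochondrial folate pathway, rose by 0.70 against LS (FDR 0.0378) and had 0.14 against Ctrl (FDR 0.647).

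Of 30 further ER folding and ERAD genes, 0 rose and 7 fell in AL against Ctrl, none of them called, and 1 rose and 5 fell against LS. Hspa5 (BiP), the main ER chaperone and the usual readout of ER stress, had 352 to 848 CPM in AL (median 613), 762 to 1135 in LS and 478 to 795 in Ctrl (median 711). It fell by 0.49 against LS (SE 0.145, FDR 0.0205) and had a log2FC of -0.22 against Ctrl (FDR 0.210). Hsp90b1 had -0.19 against Ctrl (FDR 0.347) and -0.40 against LS (FDR 0.0833), and Dnajb9, a co-chaperone of BiP and a target of XBP1, fell by 0.28 against Ctrl (SE 0.0865, FDR 0.0233). Of 12 tested genes of cytosolic aminoacyl-tRNA synthetases and the tRNA exporter Xpot, 2 rose and 3 fell against Ctrl. Of 13 mitochondrial stress response genes, such as proteases and chaperones of the organelle, 7 fell and 0 rose against Ctrl, and likewise against LS, with a median log2FC of -0.25 and -0.28. None was called, and of all genes 15.4% fell against Ctrl and 13.6% against LS.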

How the data were processed

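The authors aligned stranded reads to GRCm38 with STAR and quantified genes with Salmon, and deposited estimated counts per gene and mouse, without scaling or adjustment for the run. Fractional values made up 14.2% of them and were rounded here. The groups, mouse numbers and runs came from the labels. The 40 genes, their grouping and the other lists were chosen with earlier results of these data known. Genes kept by filterByExpr (minimum count 10) were scaled by TMM and tested with edgeR 4.0.16 (quasi-likelihood, group and run in the model, all 20 mice in 1 fit) in R 4.3.3. FDR is the Benjamini-Hochberg adjusted p, two-sided, over 14477 genes. Standard errors came from the F statistic. CPM values are TMM-normalized. The test was checked on simulated counts.

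Given in full are genes with an FDR under 0.05 in any comparison, the sensors, Atf4, Xbp1, Fgf21, Gdf15, and, of other pathways, called genes and Hspa5, Hsp90b1 and Dnajb9. Coordinates and exon lengths come from GENCODE M21. The authors' tables of differential expression were not used. The alternatives were other filters, RLE factors, DESeq2 1.42.0, ComBat-seq (sva 3.50.0), no run term, each run alone, a block for the mouse number (replicate block), fits of 2 groups, 3 covariates (hepatocyte genes, immediate-early genes, Xist) and each mouse left out. Leaving out the 5 mice of highest hepatocyte level was added after seeing the data. A count of 3 was taken as the floor per mouse, which is 0.0474 to 0.0748 CPM in the first run and 0.231 to 0.356 in the second, and covers counting error only.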

Additional observations from a re-analysis of the deposited data

Results flagged for a closer look

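Single mice stood apart from their group in 9 of 120 combinations of gene and group, by Dixon's ratio of the gap beside the most extreme mouse to the range of its group. Its critical values are set at the 95% level, so that about 1 group in 20 passes by chance. The mouse AL9 was the highest of its group in 5 of them: Eif2ak3 at 13.1 CPM (next 10.6), Eif2ak4 at 9.47 (next 7.11), Sesn2 at 6.63 (next 3.56), Syvn1 at 22.1 (next 15.5) and Slc7a11 at 0.258, which is 3 counts. AL9 was sequenced in the second run at 8948600 counts, and had the highest fibroblast and macrophage sums. AL7 had 3.45 CPM of Gdf15, against 1.33 in the next AL mouse. Of the Ctrl mice, Ctrl2 had 369 CPM of Herpud1 (next 239), Ctrl4 had 0.610 CPM of Slc7a11 (30 counts, next 0.231 CPM), and Ctrl5 had 0.787 CPM of Asns, against 1.83 in the next lowest. The difference between AL and Ctrl in Ppp1r15a was larger in the second run than in the first by 1.12 on the log2 scale, by a test of the interaction with run.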

How the results depend on the processing

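The number of members called in AL against Ctrl, 3, was 1 with ComBat-seq, 5 in the first run alone, 0 in the second run alone, 1 with the replicate block and 7 with the hepatocyte covariate, and 1 to 5 with each mouse left out, being 1 without AL1 or Ctrl2 and 5 without AL5. In AL against LS, 4 became 0 with ComBat-seq, 1 with no run term, 2 with the replicate block, 0 without the 5 mice of highest hepatocyte level (which leaves 2 LS mice), and 1 to 6 with each mouse left out, being 1 without AL1, LS2 or LS4, 2 without AL6, AL7 or LS3, and 6 without AL3 or AL9. The interaction with run passed 1 member, and 0 to 6 with each second-run mouse left out (6 without AL8, 0 without AL9 or Ctrl6). No alternative called a member between LS and Ctrl. Among all genes, calls ran from 16 (second run alone) to 1336 (without AL8) in AL against Ctrl, where 1130 were reported, from 473 (without the 5 mice) to 1639 (first run alone) in AL against LS, where 1288 were, and from 2 to 19 (DESeq2) in LS against Ctrl, where 3 were. For the 16 genes given in full, 375 of 490 values under an alternative kept their sign and their side of an FDR of 0.05, 70 lost it, 16 gained it and 29 changed sign, 0 of which passed before or after. Against Ctrl the sign changed for Eif2ak3 (-0.0037 with ComBat-seq, -0.055 in the first run alone, -0.036 with the replicate block, -0.046 to 0.072 with each mouse left out), Atf6 (-0.013, -0.12, -0.26, -0.039 to 0.077 in the same order), Eif2ak4 (0.043 in the second run alone), Atf4 (-0.056 with the block), Xbp1 (-0.052 with the block) and Gdf15 (-0.49 with the block, -0.063 with the Xist covariate, -0.075 without AL7 to 0.66 with each mouse left out). Against LS it changed with the hepatocyte covariate for Eif2ak3 (0.026), Atf6 (0.080), Eif2ak4 (0.015), Atf3 (0.19) and Xbp1 (0.056), with the immediate-early covariate for Eif2ak3 (0.026), Atf6 (0.016) and Atf3 (0.0090), with no run term for Eif2ak3 (0.00075) and Eif2ak4 (0.057), without the 5 mice for Eif2ak4 (0.037), and with a mouse left out for Atf6 (-0.077 to 0.023), Eif2ak4 (-0.061 to 0.011), Atf3 (-0.41 to 0.056) and Xbp1 (-0.14 to 0.0023). Nupr1 against Ctrl lost it in the second run alone and with the replicate block (log2FC 0.46), and Ddit3 against LS with ComBat-seq and without the 5 mice. With the replicate block Atf3 had a log2FC of 0.17 against Ctrl. Of all calls in AL against Ctrl, 52.5% were higher, and 41.2% with the block, and in AL against LS 65.9%, and 54.5% with ComBat-seq, while the median of all genes moved by less than 0.1 in every setting. Same-numbered mice deviated together (correlation over 0.1) in 4 of 15 pairs only (range -0.228 to 0.293), so the numbers were not taken to pair mice. In the second run a floor of 0.231 to 0.356 CPM limits Pycr1, Fgf21 and Slc7a11. The causes of these changes were not tested.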
